A study of Mus musculus with 12 samples.

Results

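Cytosolic sulfotransferases transfer a sulfonate group from the activated sulfate donor PAPS to hydroxyl and amine groups of hormones, lipids, drugs and dietary chemicals. The product is usually more soluble and easier to excrete, and ethanol itself can be conjugated in this way to ethyl sulfate. In keratinised squamous epithelium, cholesterol sulfate made by Sult2b1 is a signal for the late steps of differentiation. The 5 genes described here were Sult1a1, Sult1b1, Sult1d1, Sult1e1 and Sult2b1. They were found by gene name among 28193 genes and unnamed probes (41174 probes) of a mouse array and were measured by 6 probes, of which 5, 1 for each gene, passed the filter on dim probes. The genes were selected on log2 ratios of these same arrays, with results of the group comparisons known. No threshold was given, and their changes below are therefore a description without p-values.

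RNA came from whole forestomach, the squamous-lined part of the rodent stomach, of adult wild-type C57BL/6J mice. The 40-week group of 4 samples had received 15% alcohol for 40 weeks. The 4-week group of 4 samples had received 20% alcohol in supersaccharin for 4 weeks, and the 4 control samples came from mice on supersaccharin without alcohol. Dose, duration and cohort differ together between the alcohol groups, the labels name no saccharin for the 40-week mice, and no control was kept for 40 weeks, so alcohol cannot be told apart from age or cohort in that group. The labels do not say whether replicates were separate animals, and p-values measure only the spread between these samples. On every array Cy5 carried forestomach RNA and Cy3 a commercial mouse reference pool, and each value is the log2 ratio of Cy5 over Cy3, so a positive value means more signal from forestomach than from the pool.

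The probe sequences show what each value rests on, since a ratio counts only the transcripts that these 60 bases capture. Positions are those of the deposited files on mouse build mm9, all on the minus strand. Sult1b1, Sult1d1 and Sult1e1 lie close together on chromosome 5. The probes were chr7:133816605-133816664 for Sult1a1, chr5:87943946-87944005 for Sult1b1, chr5:87942561-87942620 for a second Sult1b1 probe, chr5:87984658-87984717 for Sult1d1, chr5:88005187-88005246 for Sult1e1 and chr7:52989476-52990556 for Sult2b1. The Sult2b1 probe of 60 bases spans 1081 genomic bases and therefore crosses at least 1 intron. The longest run of bases that any of these probes shared with a probe of another sulfotransferase gene was 10.
Sult1a1: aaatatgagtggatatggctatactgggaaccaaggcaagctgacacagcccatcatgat
Sult1b1: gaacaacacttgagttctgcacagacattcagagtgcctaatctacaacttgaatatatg
Sult1b1 second probe: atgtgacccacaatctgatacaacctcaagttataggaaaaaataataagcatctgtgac
Sult1d1: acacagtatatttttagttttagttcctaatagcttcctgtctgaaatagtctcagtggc
Sult1e1: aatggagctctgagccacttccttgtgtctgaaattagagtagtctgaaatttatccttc
Sult2b1: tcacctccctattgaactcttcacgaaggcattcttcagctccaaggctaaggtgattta

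All 10 squamous epithelium markers were well above background on the 8 arrays with scanner files, which are the 4-week and control arrays. Their median ratio was 2.85 to 3.22 at 40 weeks, 3.32 to 4.08 at 4 weeks and 4.80 to 5.23 in controls. On 3 arrays, markers of glandular stomach or pancreas were high, and these are the 3 arrays named below for organ transcripts. The 9 measured markers of glandular stomach summed to a Cy5 signal of 1708590 in 4-week replicate 2 and 1496540 in control replicate 4, against 727 to 22232 on the other 6 arrays. The 9 measured pancreas markers summed to 2024390 in control replicate 3 and to 505 to 2810 elsewhere. Other arrays were not free of such transcripts. The median liver marker ratio was 5.29 in control replicate 3, 3.77 in 4-week replicate 1 and 3.37 in 4-week replicate 2. It was 0.63 to 2.33 on the other 4-week and control arrays. Adipocyte marker medians ran from 0.82 in 4-week replicate 3 to 6.69 in control replicate 3. Median Cy5 signal over probes was 40.1 to 104 on the 4-week arrays and 106.5 to 142 on the control arrays. Each of these groups lay on a slide of its own, so slide and group cannot be told apart. The deposited columns also differed in spread, with a standard deviation over probes of 1.02 to 1.08 at 40 weeks, 1.48 to 1.58 at 4 weeks and 1.52 to 1.73 in controls. In whole tissue, fewer cells of a type and less RNA per cell cannot be told apart.

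After 40 weeks of 15% alcohol the ratios of all 5 sulfotransferases were lower than after 4 weeks of 20% alcohol and lower than in controls, by 1.15 to 4.60 on the log2 scale. Every 40-week array lay below every 4-week and every control array for each of the 5 genes. Sult1d1 and Sult1b1 had the largest differences among the 5, and they were also the genes whose values varied most among replicates. After 4 weeks none of the 5 was called, and the groups overlapped for all but Sult2b1.

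**Figure D1:**
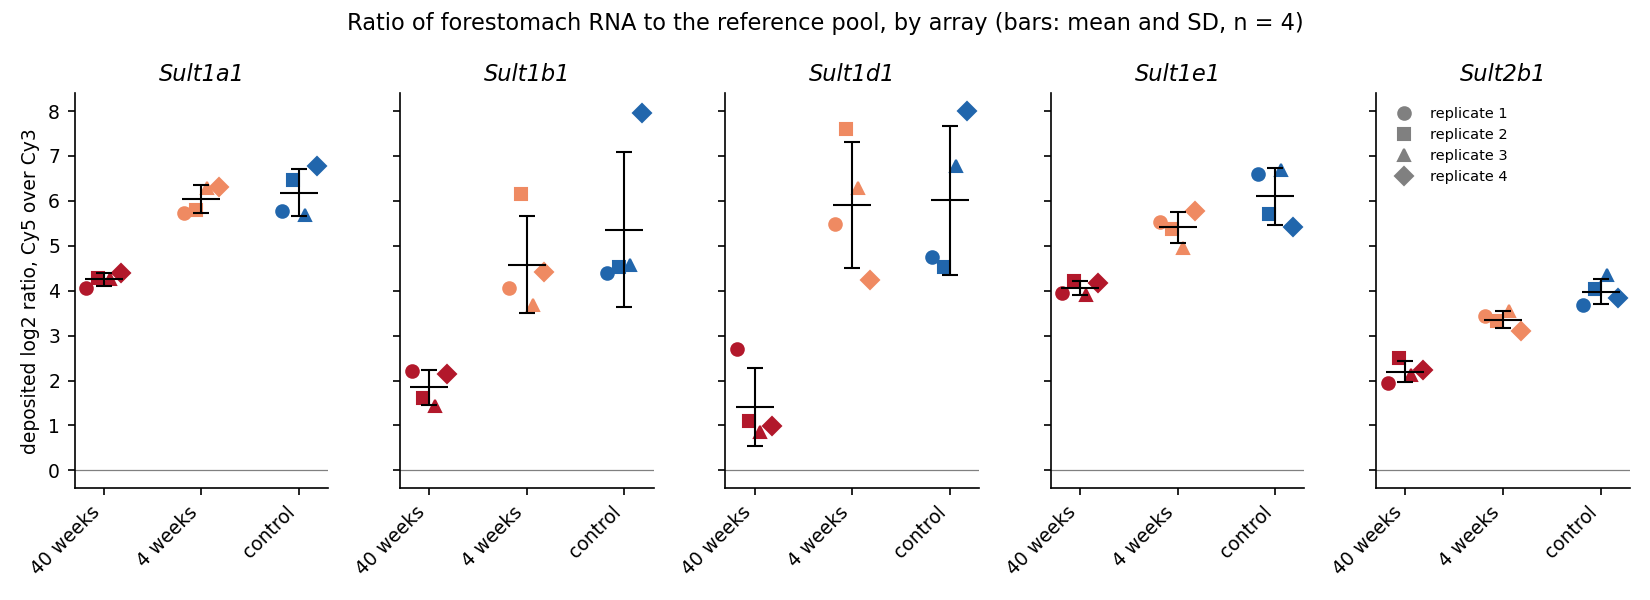
Deposited log2 ratio of Cy5 over Cy3 (vertical axis) for the 5 genes, in the 40-week, 4-week and control groups from left to right, with 1 symbol per array and the mean and SD of 4 arrays as bars. The 40-week points lie below all others in each panel, and single arrays stand high for Sult1b1 and Sult1d1, such as control replicate 4 at 7.95 and 7.99.

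Sult1a1, which conjugates small phenols, had deposited log2 ratios of 4.07, 4.27, 4.26 and 4.40 at 40 weeks, 5.72, 5.81, 6.29 and 6.32 at 4 weeks, and 5.78, 6.47, 5.69 and 6.77 in controls. The 40-week arrays were close together and low, while the 4-week and control arrays overlapped over most of their range. The 40-week mean of 4.25 ± 0.14 (SD, n = 4) was lower than the control mean of 6.18 ± 0.53 (SD, n = 4) by 1.93 ± 0.24 (SE). The difference of 40 weeks minus 4 weeks was -1.78 ± 0.24, and that of 4 weeks minus control, in the scanner ratios, was -0.10 ± 0.31. The sign at 4 weeks depended on the setting, since the difference was 0.40 ± 0.46 after scaling every array to the same spread, 0.13 ± 0.28 in Cy5 alone and 0.10 ± 0.34 without the 3 arrays that carried organ transcripts, and it was called under none of them. The Cy5 signal above local background was 1674, 4444, 2626 and 1592 on the 4-week arrays and 1744, 4554, 3549 and 5460 on the control arrays, so the forestomach channel overlapped as well.

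Sult1e1, the estrogen sulfotransferase, had ratios of 3.95, 4.22, 3.90 and 4.17 at 40 weeks, 5.54, 5.38, 4.94 and 5.77 at 4 weeks, and 6.60, 5.71, 6.68 and 5.42 in controls. The 40-week arrays again formed a narrow low group, and 4-week replicate 4 lay above 2 of the controls. The mean was 4.06 ± 0.16 at 40 weeks, 5.41 ± 0.35 at 4 weeks and 6.10 ± 0.63 in controls (SD, n = 4 each). The difference from controls was -2.04 ± 0.28 (SE) at 40 weeks, and at 4 weeks it was -0.34 ± 0.34 in the scanner ratios and -0.69 ± 0.28 in the deposited table. It turned to 0.37 ± 0.55 in Cy5 alone and to 0.17 ± 0.49 with every array scaled to the same spread, and it was not called in any of these.

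Sult2b1, which sulfates cholesterol and pregnenolone, had ratios of 1.95, 2.49, 2.13 and 2.23 at 40 weeks, 3.44, 3.32, 3.55 and 3.10 at 4 weeks, and 3.69, 4.04, 4.34 and 3.84 in controls. It was the only gene of the 5 whose 3 groups were fully separated in the deposited table. The 4-week arrays lay below the controls by 0.59 ± 0.18 (SE) in the scanner ratios, a difference that was not called. Neither channel was lower at 4 weeks when taken alone after normalisation. Cy5 signal was 6478, 6510, 6786 and 2765 on the 4-week arrays and 3196, 7445, 15320 and 7149 on the control arrays, and these ranges overlapped. Cy3 signal, which reads the same reference pool on every array, was 1271 to 1479 on the 4-week arrays and 803 to 1244 on the control arrays, with no overlap. With the Cy5 channel alone, quantile normalised over arrays, the difference of 4 weeks minus control was 0.31 ± 0.28 (SE). In Cy3 alone it was 0.80 ± 0.17. The Cy3 difference, in the reference channel, was called, and the Cy5 difference was not.

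Sult1b1, which acts on phenols and thyroid hormones, had ratios of 2.20, 1.61, 1.43 and 2.14 at 40 weeks, 4.06, 6.14, 3.69 and 4.42 at 4 weeks, and 4.40, 4.52, 4.57 and 7.95 in controls. One 4-week and 1 control array stood well above the rest of their groups. These were 4-week replicate 2 and control replicate 4, the arrays with high glandular stomach markers. The Cy5 signal was 118, 16514, 76.8 and 65.1 on the 4-week arrays and 193, 291, 252 and 9080 on the control arrays. The difference from controls was -3.52 ± 0.74 (SE) at 40 weeks and -0.85 ± 1.32 at 4 weeks in the scanner ratios. The value at 4 weeks turned with single arrays, since it was -1.93 without 4-week replicate 2 and 0.33 without control replicate 4. Without the 3 arrays that carried organ transcripts, the difference at 40 weeks was -2.61 ± 0.26, and at 4 weeks it was -0.65 ± 0.24 and was not called.

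The second Sult1b1 probe was well above background in Cy5 on 3 of 8 arrays and did not pass the filter. Its ratios were 0.47, -0.05, 0.16 and -0.02 at 40 weeks, 0.36, 6.01, -0.16 and -0.20 at 4 weeks, and 1.66, 0.94, 0.79 and 5.07 in controls. Again 4-week replicate 2 and control replicate 4 were the high arrays, with Cy5 signals of 502 and 462 against 5.23 to 21.8 on the other arrays.

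Sult1d1, which in mouse sulfates catecholamines and small phenols, had ratios of 2.71, 1.09, 0.85 and 1.00 at 40 weeks, 5.49, 7.59, 6.29 and 4.24 at 4 weeks, and 4.74, 4.54, 6.77 and 7.99 in controls. The 40-week arrays lay far below the rest, with replicate 1 above the other 3. The Cy5 signal was 434, 6427, 667 and 94.3 on the 4-week arrays and 280, 311, 1934 and 4461 on the control arrays. The same pair of arrays was highest, followed by control replicate 3, the array with pancreas transcripts. The difference from controls was -4.60 ± 0.83 (SE) at 40 weeks, and -3.23 ± 0.60 without those 3 arrays. At 4 weeks it was -0.07 ± 1.17 in the scanner ratios, with a range from -0.93 to 0.70 when single arrays were left out. It turned to 0.77 ± 0.60 without those 3 arrays, to 0.23 ± 1.04 after scaling every array to the same spread and to 0.19 ± 1.02 in Cy5 alone, and it was not called under any of these.

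The low reference signal limits these ratios. For Sult1b1 the Cy3 signal was well above background on 2 of 8 arrays and ran from 12.1 to 458, and for Sult1d1 it was well above background on 7 of 8 and ran from 22.3 to 72.3. Ratios of these probes therefore depend on how background is removed. The mean for Sult1d1 in controls was 6.01 in the deposited table and 4.23 in the scanner ratios, which add an offset to both channels. For Sult1a1, Sult1e1 and Sult2b1 the Cy3 signal was well above background on all 8 arrays. Their control means differed between the 2 sources as well. The deposited table gave 6.18 for Sult1a1, 6.10 for Sult1e1 and 3.98 for Sult2b1, and the scanner ratios gave 5.37, 5.08 and 3.83.

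**Figure D2:**
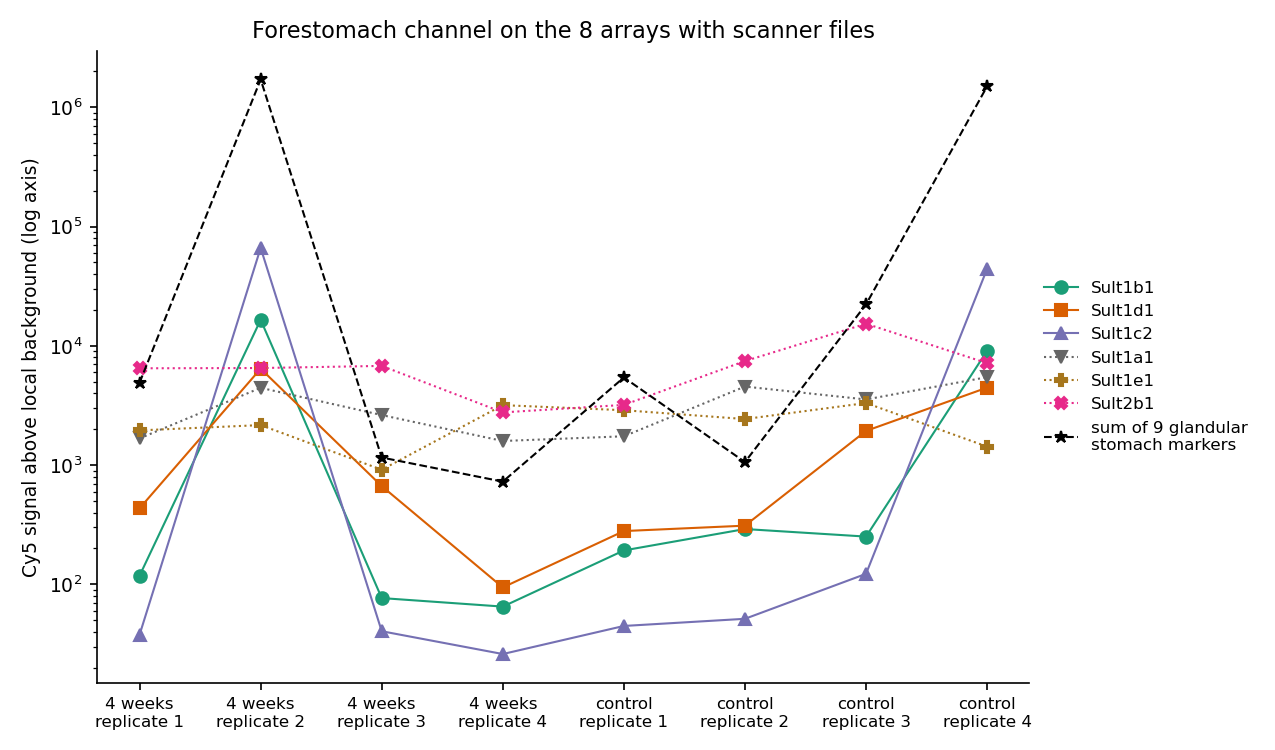
Cy5 signal above local background (log axis) of 6 sulfotransferase genes and of the sum of 9 glandular stomach markers, on the 4-week arrays at left and the control arrays at right. Lines only join the points of a gene and the replicates have no order. Sult1b1, Sult1d1 and Sult1c2 are highest on 4-week replicate 2 and control replicate 4, as is the marker sum, whereas Sult1a1, Sult1e1 and Sult2b1 stay within 914 to 15320 on all 8 arrays.

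Sult1c2, a sulfotransferase of small phenols outside the set of 5, had the same high arrays. Its ratios were -0.70, -1.63, -1.82 and -1.05 at 40 weeks, -2.65, 3.96, -2.42 and -2.24 at 4 weeks, and -2.77, -3.07, -1.79 and 5.49 in controls. The Cy5 signal was 66134 in 4-week replicate 2 and 44161 in control replicate 4, and 26.1 to 123 on the other 6 arrays. The Cy3 signal of the reference pool was 6367 and 1773 on those arrays, and 626 to 843 on the other 6. Sult1c2 was not called at 40 weeks against control (-0.76 ± 1.84 (SE), limma adjusted p = 0.762). Without the 3 arrays the sign turned, and the 40-week ratios were higher than controls by 1.62 ± 0.29, which was called. What the glandular stomach markers contributed to the Sult1b1, Sult1d1 and Sult1c2 values was not tested beyond leaving these arrays out.

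In the count of calls, 0 of the 5 genes passed an adjusted p under 0.05 at 4 weeks, where limma called 0.755% of 30455 probes. At 40 weeks all 5 were called lower than controls, where 24.2% of probes were called lower. Against 4 weeks all 5 were again called lower, beside 24.7% of probes. Groups did not overlap, with the alcohol group lower, for 1 gene at 4 weeks (5.94% of probes), for 5 at 40 weeks against control (23.9%) and for 5 at 40 weeks against 4 weeks (26.7%). Because the genes were picked with these contrasts known, nothing is read from these counts. Both comparisons with controls use the same 4 control samples. Without the 3 arrays carrying organ transcripts, all 5 were called lower at 40 weeks, against controls (20.8% of probes) and against 4 weeks (26.8%). Nothing is read from these calls either, since the genes were picked with the same contrasts known.

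The size of the fall at 40 weeks must be read beside the level of the ratio. Of the 30455 probes, 1877 had a control mean above 3, as had all 5 sulfotransferases, and 98.6% of them had a lower mean at 40 weeks, with a median difference of -1.68. Of 410 probes with a control mean below -3, 3.41% were lower at 40 weeks, and their median difference was 1.21. Over all probes the median was -0.10. The differences of -1.93 for Sult1a1, -2.04 for Sult1e1 and -1.78 for Sult2b1 were near the median of the high probes, and those of Sult1b1 and Sult1d1 were below it. This median covers every probe above 3, whereas Sult1a1, Sult1e1 and Sult2b1 had control means of 6.18, 6.10 and 3.98. It is therefore not matched to the level of each gene. The control mean also enters both the cut and the difference, which by itself moves the high and low probes apart.

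**Figure D3:**
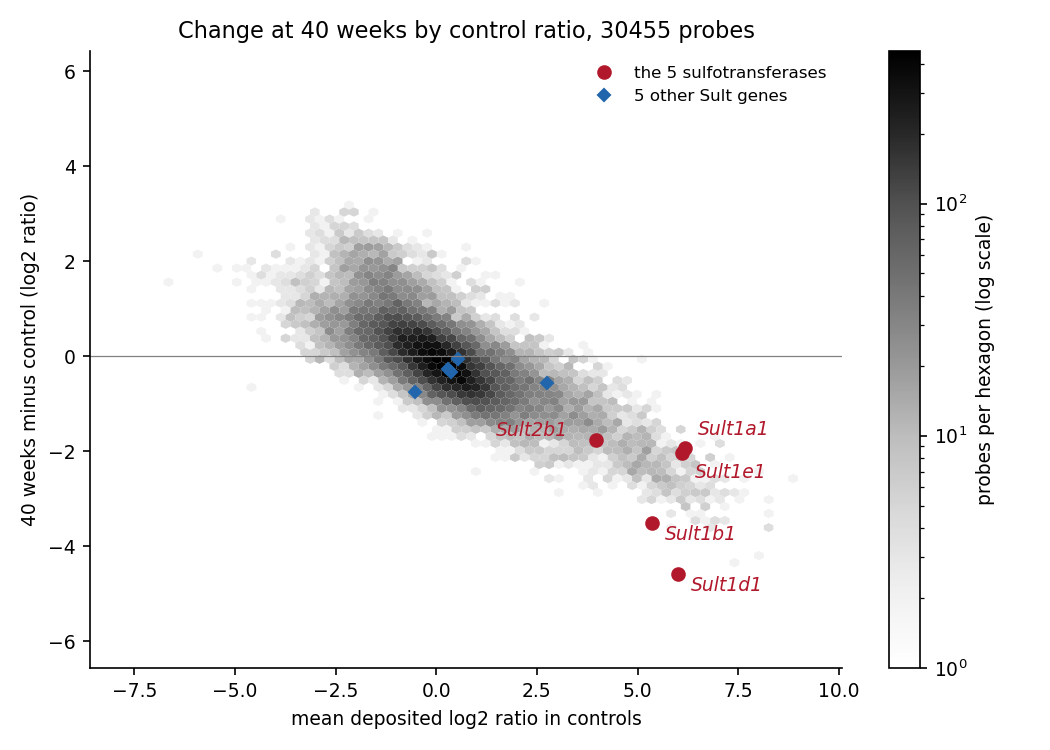
Difference of 40 weeks minus control (vertical axis, log2 ratio) against the mean deposited log2 ratio in controls (horizontal axis) for 30455 probes, shaded by the number of probes, with the 5 sulfotransferases as red circles and 5 other Sult genes as blue diamonds. The probes form a falling band, in which Sult1a1, Sult1e1 and Sult2b1 lie at -1.93, -2.04 and -1.78, with Sult1b1 at -3.52 and Sult1d1 at -4.60 at its lower edge.

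When every array was scaled to the same spread, the 5 genes separated. For Sult1d1 the difference of 40 weeks minus control was -3.35 ± 0.73 (SE), for Sult1b1 it was -2.24 ± 0.66 and for Sult2b1 it was -0.53 ± 0.18. These 3 of the 5 were called lower (20.2% of probes), and nothing is read from the calls of the 5 on this scale either. For Sult1a1 it turned to 0.26 ± 0.31 and for Sult1e1 to 0.10 ± 0.25, neither of them called. Against 4 weeks on this scale, Sult1d1 was called lower at -3.21 ± 0.73 (21.7% of probes were called lower) and Sult1e1 was called higher at 0.75 ± 0.25 (21.3% were called higher). Sult1b1, at -1.50 ± 0.66, Sult1a1, at 0.48 ± 0.31, and Sult2b1, at 0.05 ± 0.18, were not called. Which scale is the right one for the 40-week columns was not tested, since their scanner files were not used here.

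**Figure D4:**
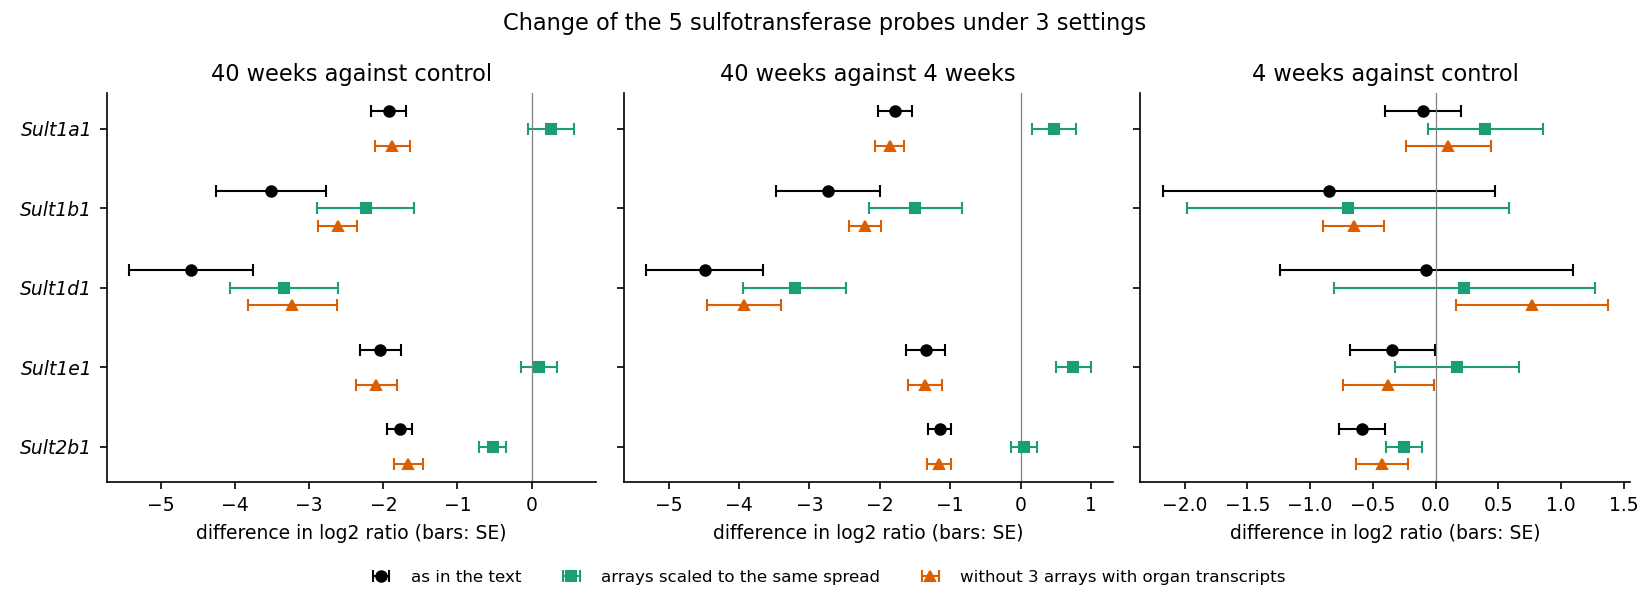
Difference in log2 ratio with its SE (horizontal axis) for the 5 genes in 3 comparisons, as given in the text (black), with every array scaled to the same spread (green) and without the 3 arrays that carried organ transcripts (orange). In the 40-week panels Sult1d1 stays below 0 under all 3 settings, at -4.60, -3.35 and -3.23 against controls, while scaling moves Sult1a1 and Sult1e1 above 0.

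Among themselves the 5 genes fell into patterns of differing closeness over the 12 arrays. Closeness was measured as the root mean square difference of log2 ratios after centring each gene on its mean. The closest pair was Sult1e1 and Sult2b1 at 0.43, followed by Sult1a1 and Sult2b1 at 0.48 and Sult1a1 and Sult1e1 at 0.68. Sult1b1 and Sult1d1 were 1.11 apart, and Sult1d1 and Sult1e1 were the farthest pair of the 5 at 1.92. These values share the arrays, the reference pool and the column spread.

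Over 20723 other genes, the nearest patterns to each member were also found. Sult2b1 was nearest to Lce1l, a late cornified envelope gene, at 0.10, to the cytochrome P450 Cyp4f39 at 0.15 and to an unnamed probe at 0.15. Sult1e1 was nearest to Zfp750, Fabp12 and Il20rb, at 0.23 to 0.24. Sult1a1 was nearest to Ccdc149 at 0.19, and to Atp9a and Kdr at 0.24. Among the genes nearest to Sult1b1 were Cwh43 at 0.64 and Igsf5 at 0.67, and among those nearest to Sult1d1 were an unnamed probe at 1.07 and Sult1b1 itself at 1.11.

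Of 22 cytosolic sulfotransferase genes listed, 18 were on the array and 10 passed the filter. The 8 genes that did not pass were Sult2a3, Sult2a4, Sult2a5, Sult2a6, Sult2a7, Sult3a1, Sult3a2 and Sult6b1. The filter used the 4-week and control arrays only, so a gene bright only at 40 weeks could not pass. At 40 weeks against control, 6 of the 10 were called lower and none higher, beside 24.2% and 18.1% of all probes. The sixth was Sult4a1, a brain sulfotransferase, at -0.57 ± 0.14 (SE, limma adjusted p = 0.00696). After scaling, Sult4a1 turned to 0.50 ± 0.17 and was called higher. Its second probe, at 0.17 ± 0.34 before scaling, was not called, and it was well above background in Cy5 on only 3 of 8 arrays. Sult1c1, Sult2a8 and Sult5a1, at -0.06, -0.33 and -0.27, were not called. The median of the 10 was -1.27, against -0.10 over all probes, and 5 of the 10 are the genes picked with these contrasts known. After scaling, 3 of the 10 fell and 1 rose, beside 20.2% and 18.9% of all probes. The median was then -0.23 for the 10 and -0.06 over all probes. At 4 weeks none of the 10 was called, beside 0.755% of all probes, with a median of -0.23 against -0.01.

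The PAPS synthases did not share a direction. Papss1 was higher at 40 weeks than in controls by 0.39 ± 0.11 (SE, limma adjusted p = 0.0155), but was not called after scaling (0.14 ± 0.12) or without the 3 arrays (0.34 ± 0.14). Papss2 had ratios of -0.59, -0.12, -0.09 and -0.48 at 40 weeks, 0.46, 3.18, 0.89 and 0.88 at 4 weeks, and -0.11, 0.57, 0.60 and 2.90 in controls. It too was highest on 4-week replicate 2 and control replicate 4, and it was not called at 40 weeks (-1.31 ± 0.65, adjusted p = 0.125). Of 11 measured genes of sulfate donor supply, 2 rose (18.1% of all probes were called higher) and 2 fell (24.2% were called lower) at 40 weeks. Bpnt1, the phosphatase that clears the spent donor, fell by 0.92 ± 0.17 (adjusted p = 0.00109), and the sulfate transporter Slc26a1 fell by 1.68 ± 0.42 (adjusted p = 0.0079). Slc35b2, which carries PAPS into the Golgi, rose by 0.61 ± 0.16 (adjusted p = 0.00851). Without 40-week replicates 3 and 4, Slc26a1 at -1.66, Slc35b2 at 0.49 and Papss1 at 0.41 were not called. Against 4 weeks the counts were also 2 and 2, beside 18.3% of probes called higher and 24.7% called lower. Slc26a11 was at 0.81 ± 0.21 and Slc26a1 at -2.44 ± 0.42. Slc26a11 was not called without those replicates.

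Among 15 sulfatases and their modifying factors, which remove sulfate, 5 rose and 5 fell at 40 weeks against control. In this comparison 18.1% of all probes were called higher and 24.2% lower. Sts, the steroid sulfatase that cleaves cholesterol sulfate, fell by 2.27 ± 0.27 (SE, limma adjusted p = 6.61e-05), and by 1.84 ± 0.26 after scaling. Arsi was at -1.15 ± 0.19 and Arsg at 0.95 ± 0.16, both called, and neither was called after scaling. Among 28 Golgi sulfotransferases, which act on glycans and lipids, 3 rose and 9 fell, beside the same 18.1% and 24.2% of all probes. Gal3st1, the enzyme of sulfatide synthesis, fell by 2.68 ± 0.15 (adjusted p = 8.27e-07) and by 0.90 ± 0.17 after scaling. Gal3st4 fell by 2.86 ± 0.23 (adjusted p = 3.92e-06).

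Of 14 genes around cholesterol sulfate and the epithelial barrier, which Sult2b1 serves, 4 fell and none rose at 4 weeks, where 0.575% of probes were called lower. The largest of these falls were in Spink5, a protease inhibitor, by 1.72 ± 0.24 (SE, limma adjusted p = 0.0396), in filaggrin (Flg) by 1.42 ± 0.25 (adjusted p = 0.0463) and in the protease Klk5 by 1.36 ± 0.18 (adjusted p = 0.0396). As for Sult2b1, these are ratios, and in Cy5 alone the differences were -0.21 ± 0.38 for Spink5, 0.32 ± 0.53 for Flg and 0.14 ± 0.33 for Klk5, none of them called. None of the 3 was called after scaling either, and leaving out any single array left 0 to 22 probes called in all. At 40 weeks all 14 fell against control, where 24.2% of all probes were called lower. Involucrin (Ivl) fell by 3.42 ± 0.20 (adjusted p = 8.36e-07), the lipid transporter Abca12 by 3.56 ± 0.26 (adjusted p = 2.03e-06) and loricrin (Lor) by 3.50 ± 0.37 (adjusted p = 2.15e-05). These 40-week values are from the deposited table, whereas those at 4 weeks are from the scanner ratios. In the deposited table Ivl, Abca12 and Lor were also called lower at 4 weeks, beside 3.04% of probes. At 40 weeks after scaling, 8 of the 14 fell and 1 rose, beside 20.2% and 18.9% of all probes. Marker genes of squamous epithelium and of smooth muscle were lower as well. For the other lists the median difference from controls at 40 weeks was -1.92 for adipocyte (2 of 8 called lower), -2.19 for pancreas (2 of 9) and -1.76 for liver markers (1 of 5). It was -0.97 for immune (3 of 6), -0.93 for glandular stomach (0 of 9) and 0.55 for proliferation markers (2 of 5 called higher, 0 lower). Median ratios of pancreas and liver markers were 6.12 and 5.29 in control replicate 3. In the other controls they were 0.76 to 2.38 and 0.68 to 2.33, so these 2 differences lean on 1 array. Of probes with a control mean above 3, 98.6% were lower at 40 weeks. Of the squamous epithelium markers, 10 of 10 were called lower than controls at 40 weeks and 3 of 10 at 4 weeks, with median differences of -1.96 and -0.97. The shares of all probes called lower were 24.2% and 0.575%. For all these lists the 4-week counts rest on the scanner ratios and the 40-week counts on the deposited table, so they are not like for like. In the deposited table Krt13, Krt14 and Sprr3 were called lower at 4 weeks as well, beside 3.04% of probes. Of the smooth muscle markers, 8 of 8 were called lower at 40 weeks and 3 of 8 at 4 weeks, with median differences of -1.62 and -0.90. The median ratio of the smooth muscle markers was 2.75 to 3.15 at 40 weeks, 4.04 to 4.86 at 4 weeks and 5.28 to 5.76 in controls, and their summed Cy5 signal was 600402 to 1207850 on the 4-week arrays and 1448820 to 1966500 on the control arrays. The part of these markers in the result was not tested.

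Of 8 measured glucuronosyltransferases and related genes, which conjugate many of the same substrates, 4 fell and none rose at 40 weeks against control. Over all probes 24.2% were called lower and 18.1% higher. Ugt1a1 fell by 1.56 ± 0.31 (SE, limma adjusted p = 0.00208) and was not called after scaling, and Ugt2a1 fell by 1.12 ± 0.20 (adjusted p = 0.000911). Of 10 transporters that carry sulfate conjugates, 2 rose and 5 fell, beside 18.1% and 24.2% of all probes. Slc10a6, which takes up sulfated steroids, fell by 3.32 ± 0.22 (adjusted p = 1.56e-06), and by 1.31 ± 0.27 after scaling. Slco2b1 fell by 1.93 ± 0.16 (adjusted p = 4.17e-06) and turned to 0.08 ± 0.21 after scaling. Of 21 regulators of sulfotransferase genes, 3 rose and 4 fell, beside 18.1% and 24.2% of all probes. Among these, the fatty acid receptor Ppara fell by 2.04 ± 0.18 (adjusted p = 6.3e-06), and by 0.65 ± 0.17 after scaling. Nr1i3, the xenobiotic receptor CAR, was 1.90 ± 0.30 higher (adjusted p = 0.00045), and 2.30 ± 0.29 higher after scaling.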

How the data were processed

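RNA of 12 forestomach samples in 3 groups of 4, read from the titles, was hybridised to two-colour Agilent arrays. The authors deposited scanner output for the 4-week and control arrays used here, with mean spot and local background signals as intensity, processed signals and their log10 ratios, and flags for spots that were well above background, saturated or outlying, scored 0 or 1 by the scanner software, per the file headers. The software is Agilent Feature Extraction, version 9.1 per the submitters' processing notes and 10.7.3.1 per the file headers. The deposited value table holds log2 ratios for all 12 arrays. No source used here states its scale. On the 8 arrays, for 99.8% to 99.9% of probes measurable in Cy5 and Cy3, it lay within 0.05 of the background-subtracted log2 ratio less a running median over intensity. The 40-week columns could not be checked in this way, so their scale and centring are unknown. Column medians were 0.00 to 0.07.

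Scanner signals were corrected with normexp (offset 50) and loess in limma 3.58.1 (R 4.3.3). Control and outlier spots (183 to 268 per array) were left out. Probes with Cy5 well above background on at least 3 of 4 arrays of a group with scanner files were kept (30455). Shares of all probes refer to these. The 40-week arrays had no part in this filter, so probes bright only at 40 weeks were left out, which favours falls at 40 weeks. Against control at 40 weeks, 5502 kept probes were called higher and 7355 lower. Without the filter 5925 of 41174 probes were called higher and 6795 lower. The number of arrays limits the precision. limma (lmFit, eBayes, Benjamini-Hochberg over all kept probes) compared 4 weeks with control on the scanner ratios and 40 weeks with both other groups on the deposited table, and its script was tested on simulated data. A probe was called at an adjusted p under 0.05, and the kept probe with the highest mean Cy5 stood for its gene. The text names every probe of the 5 members, the other kept cytosolic sulfotransferases, the PAPS synthases, up to 3 called genes with the largest change in each list and the 3 genes nearest in pattern. Alternatives changed background, source, channel, scaling, filter, block and arrays. The members and lists were chosen with earlier results of these data known. The 40-week scanner files were not used here. One gene that the naming rule selects is not reported here.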

Additional observations from a re-analysis of the deposited data

Results flagged for a closer look

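Of 36 groups of 4 arrays examined for 12 genes, 7 held an array far from the other 3. The rule was a gap over range above 0.829, which flags about 1 in 20 groups if these are normal and independent. The groups here share the same 12 arrays and include the 5 chosen genes, so the count of 7 cannot be set against that rate. Sult1c2 stood at 3.96 in 4-week replicate 2, against -2.65 to -2.24 in the others of that group, and at 5.49 in control replicate 4, against -3.07 to -1.79. Papss2 stood at 3.18 in 4-week replicate 2, against 0.46 to 0.89. Sult1b1 stood at 7.95 in control replicate 4, against 4.40 to 4.57. These are the arrays with high glandular stomach markers. Sult1d1 stood at 2.71 in 40-week replicate 1, against 0.85 to 1.09, and the median glandular stomach marker ratio was 1.73 on that array and 1.00 to 1.25 on the other 40-week arrays. Sult2a8 stood at 0.31 in 4-week replicate 4, against -0.12 to -0.05, and at 1.02 in control replicate 3, against 0.11 to 0.23. Control replicate 3 was the array with the highest pancreas and liver markers. What these markers contributed was not tested.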

How the results depend on the processing

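At 4 weeks limma called 230 probes, 55 higher and 175 lower, and this count moved by over 1.5 times with every choice but the filter and the use of 1 probe per gene. It was 610 without background correction, 652 with processed signals (246 higher, 406 lower), 1615 in the deposited table (688 higher, 927 lower) and 390 without control replicates 3 and 4 and 4-week replicate 2. It was 67 in Cy5 alone (55 higher, 12 lower), 0 when scaled (4822 at an unadjusted p under 0.05) and 0 with the replicate number as a block (5499 unadjusted), and it was 0 to 22 when a replicate was left out. None of the 5 sulfotransferases was called at 4 weeks under any of these. Against control at 40 weeks, 12857 probes were called, 7059 without 40-week replicates 3 and 4, whose Xist ratios were 0.63 and 0.11 against -2.25 to -0.82 on the other 10 arrays, and 10432 to 13768 when a replicate was left out. Against 4 weeks 13094 were called, 8611 with 1 probe per gene, where 20724 were tested, 7152 without those replicates, where Sult1b1 was no longer called at -2.67, and 10874 to 14051 when a replicate was left out. Same-numbered samples did not deviate together more than others (correlations of -0.43 to 0.41, against -0.49 to 0.64 for differing numbers). No pairing was seen, but with few arrays this cannot establish that there was none. The block left 12716 and 12826 calls at 40 weeks.

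Scaling turned, against control at 40 weeks, Sult1a1 to 0.26, Sult1e1 to 0.10, Sult1c1 to 0.18, Sult4a1 to 0.50, Slco2b1 to 0.085 and Abcc3 to 0.018. Against 4 weeks it turned Sult1a1 to 0.48, Sult1e1 to 0.75, Sult2b1 to 0.050, Sult1c1 to 0.092, Sult4a1 to 0.68, Slc26a2 to 0.42, Abca12 to 0.20 and Slco2b1 to 0.83, and at 4 weeks Sult1a1 to 0.40, Sult1d1 to 0.23, Sult1e1 to 0.17 and Papss1 to -0.012. Cy5 alone turned Sult1a1 to 0.13, Sult1d1 to 0.19, Sult1e1 to 0.37, Sult2b1 to 0.31, Sult1c2 to 0.20, Sult2a8 to 0.090, Flg to 0.32 and Klk5 to 0.14. Without control replicates 3 and 4 and 4-week replicate 2, a setting added for 40 weeks after the data were seen, Sult1a1 turned to 0.10, Sult1d1 to 0.77 and Sult1c2 to 0.41 at 4 weeks, Sult1c2 to 1.62 and 1.14 at 40 weeks, Sult5a1 to 0.017 at 4 weeks and Sult1c1 to 0.044 at 40 weeks, and without 40-week replicates 3 and 4 Sult1c1 turned to 0.021. Leaving out arrays (a replicate or those 3) gave, at 4 weeks, -0.37 to 0.13 for Sult1a1, -1.93 to 0.33 for Sult1b1, -0.93 to 0.77 for Sult1d1, -1.56 to 1.62 for Sult1c2, -0.0097 to 0.21 for Sult1c1, -0.30 to 0.025 for Sult5a1 and -0.31 to 0.67 for Papss2. Against control at 40 weeks it gave -1.61 to 1.62 for Sult1c2 and -0.11 to 0.046 for Sult1c1, and against 4 weeks -1.07 to 1.14 for Sult1c2, -0.019 to 0.12 for Sult2a8 and -0.16 to 0.050 for Sult5a1. Apart from those alternatives that leave out arrays or probes, the cause of these changes was not tested. Low Cy3 signal limits the ratios of Sult1b1 and Sult1d1.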
